A study of Mus musculus with 2 samples.

Results

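The TGF-beta superfamily pathway was described in whole mouse embryos of embryonic day 10.5 through 44 genes: 7 type I and 4 type II receptors, 2 co-receptors and 1 decoy receptor, the 8 Smads, 4 intracellular inhibitors, 10 secreted BMP or activin antagonists and modulators, and 8 TGF-beta ligands, activin subunits and latent TGF-beta binding proteins. They were found by Ensembl identifier among 37681 gene identifiers in the files, and each had 1 locus. The embryos came from CBA/Ca×C57Bl/10 crosses, were untreated and developed normally, and their total RNA was sequenced in 2 replicates that form the series' 1 group. How many embryos went into a library is not in the labels, and RNA of the whole body mixes all cell types, so few cells with much transcript and many cells with little cannot be told apart. The spread between the 2 libraries may be technical, and there is no comparison between conditions.

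Ligands of this superfamily bring together type I and type II receptor kinases, and the type I kinase then phosphorylates receptor-regulated Smads, which join the common Smad4 and enter the nucleus. BMP receptors act on Smad1, Smad5 and Smad9, and TGF-beta and activin receptors act on Smad2 and Smad3. Secreted antagonists hold ligands away from receptors, and inhibitory Smads, ubiquitin ligases and nuclear corepressors damp the signal inside the cell. In midgestation embryos these signals take part in patterning the dorsal neural tube and the limb buds and in forming heart cushions and vessels.

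Levels are RPKM, the authors' read count scaled by a gene's length in kilobases and by library size, given for replicate 1 and then replicate 2. Reads over all loci came to 18318181 in replicate 1 and 117522171 in replicate 2, so values of replicate 1 are the less precise, and 95% Poisson intervals given for low genes cover counting error only. Of the 18335 loci with a mean of 1 RPKM or more, 79.1% were lower in replicate 2. Over these loci the median difference of log2(RPKM + 1), replicate 2 minus replicate 1, was -0.38, and over the 41 pathway genes that passed the same filter it was -0.36. Markers fixed for heart, nerve, limb, primitive red cell, endothelium and macrophages were at 1 RPKM or more in both replicates at all 22 loci. The primitive erythroid markers summed to 4067 and 11612 RPKM, and their part in the lower levels of replicate 2 was not tested. Of the 6 placental and decidual markers 1 reached 1 RPKM in both replicates. This was Prl8a2, at 1.23 RPKM from 13 reads in replicate 1 and 6.375 RPKM from 383 reads in replicate 2. Tpbpa and Psg21 had 0 reads, and none of the 3 adult liver markers reached 1 RPKM in both replicates.

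Transcripts of most of these receptors, Smads and antagonists were found in both replicates. Of the 44 genes, 41 (93.2%) reached 1 RPKM in both replicates, where 49.4% of all 34624 loci and 65.1% of 19295 protein-coding loci did. The median over the 44 genes was 20.3 and 15.6 RPKM, beside 8.38 and 5.52 over protein-coding loci. The 3 genes under the minimum were the type I receptor Acvr1c and the activin subunits Inhba and Inhbb. Levels spanned from Inhbb to Fstl1, and 4 genes were over 100 RPKM in both replicates: Fstl1, Smad5, Tgfbr1 and Smad2. In both replicates 9 genes lay under 3 RPKM, and 5 of these 9 were secreted antagonists or latent binding proteins.

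A pair of genes was called different in level when its difference of log2(RPKM + 1) went 1 way in each library and its mean exceeded 2 SD of the replicate ratio of the 1000 loci nearest in level, here called the replicate spread. By this rule 21 of 29 chosen pairs lay beyond the spread. The pairs were chosen with earlier results of these data known. The share of other locus pairs that would pass was not computed, so the count sets these genes apart from no others. When the 44 genes were put in order of mean RPKM, none of the 43 neighbouring pairs, which are the closest pairs by construction, lay beyond the spread. The length the authors divided by bears on every such comparison. For 60.8% of 1682 single-transcript coding loci it came within 1% of the stretch from the transcript's start to the end of its stop codon in GENCODE M21, and for 2.62% within 1% of the whole transcript. Whether reads beyond the stop codon were counted was not tested. If they were, genes with a long untranslated end have raised RPKM, so each pair was also compared per kilobase of its longest listed transcript, and 12 of 29 then lay beyond the spread.

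**Figure D1:**
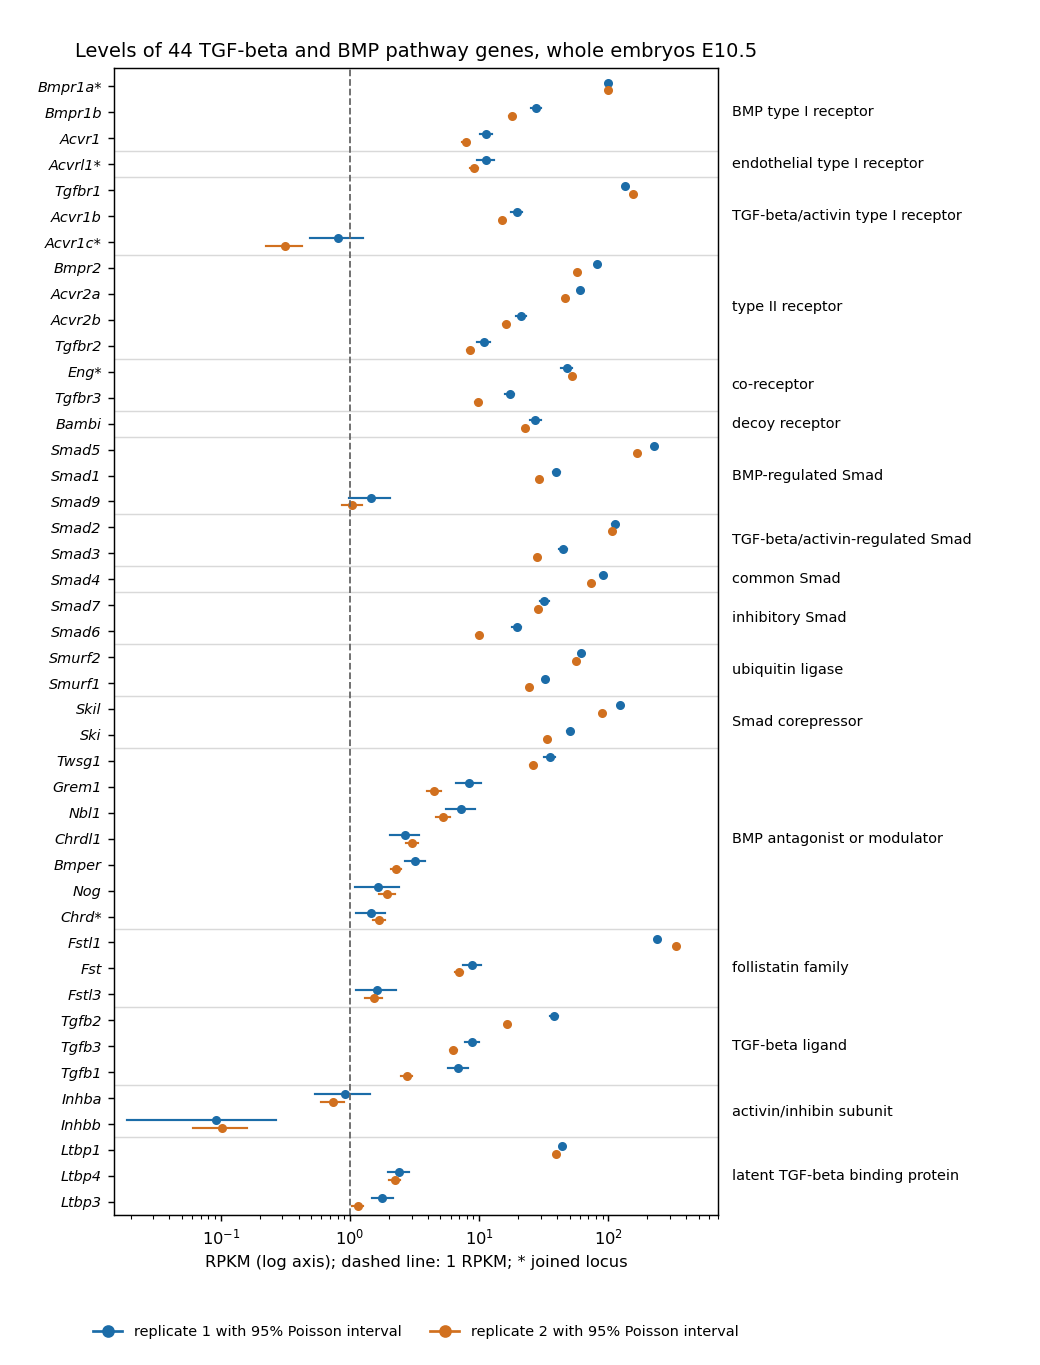
RPKM of the 44 genes on a log axis, by role, with replicate 1 in blue and replicate 2 in orange, 95% Poisson intervals as lines and the 1 RPKM minimum dashed. Acvr1c, Inhba and Inhbb lie below the minimum in both replicates, and asterisks mark the 5 loci joined with another gene.

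Promoters of 33 of the 44 genes were in the RefSeq table of build GRCm38.p6, which gives 250 bases before and 50 after a gene's start. Where a gene had several listed starts, only the most upstream was taken, and promoters at other starts were not examined. Most of the 33 promoters held more CpG than the median promoter. The median was 30 CpG in 300 bases over the 33 genes (range 3 to 59), beside 7 over all 27025 genes in the table, and 4 promoters, of Ltbp3, Bmpr1b, Eng and Inhba, held 7 or fewer. The 27025 genes were not limited to protein-coding or expressed ones, and the 33 were not compared with such genes. The median was 31 for the 19 genes with a mean of 10 RPKM or more and 29 for the 14 below. The promoter of Fstl1, the highest gene, held 21 CpG and that of Inhbb, the lowest, held 23. The pair is shown because their levels stood at opposite ends while their CpG counts were close. Fstl1 lies on the plus strand at chr16:37776805-37777104 and Inhbb on the minus strand at chr1:119422199-119422498, and capitals mark each CpG.
Fstl1: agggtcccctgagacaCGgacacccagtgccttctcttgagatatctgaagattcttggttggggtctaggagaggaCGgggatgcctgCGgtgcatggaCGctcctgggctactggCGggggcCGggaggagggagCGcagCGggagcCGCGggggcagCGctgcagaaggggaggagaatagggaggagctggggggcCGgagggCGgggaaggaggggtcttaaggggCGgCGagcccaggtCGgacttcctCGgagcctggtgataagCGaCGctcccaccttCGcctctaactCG
Inhbb: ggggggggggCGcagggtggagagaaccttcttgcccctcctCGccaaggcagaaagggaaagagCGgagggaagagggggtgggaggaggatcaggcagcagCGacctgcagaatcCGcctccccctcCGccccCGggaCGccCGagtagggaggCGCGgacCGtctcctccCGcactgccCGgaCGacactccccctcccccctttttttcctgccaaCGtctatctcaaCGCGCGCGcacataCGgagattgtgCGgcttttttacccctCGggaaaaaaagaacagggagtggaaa

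Motifs were searched on both strands in the same windows. The palindromic Smad binding element GTCTAGAC, a sequence that Smad proteins bind, was in 1 of the 33 promoters and in 0.211% of all 27025. That promoter was of Smad6, the inhibitory Smad that BMP signalling induces as feedback. The GC-rich Smad site GGCGCC was in 11 of 33 (33.3%, against 12% of all promoters) and the TATA box TATAAA in 4 of 33 (12.1%, against 14.2%). None of these motifs contains another. A match says only that the letters are there, and GGCGCC itself holds a CpG, so its share was not compared at equal CpG content. The Smad6 promoter lies on the minus strand at chr9:64022010-64022309, and capitals mark the element, which begins at base 247 of the window and so spans the annotated start.
Smad6: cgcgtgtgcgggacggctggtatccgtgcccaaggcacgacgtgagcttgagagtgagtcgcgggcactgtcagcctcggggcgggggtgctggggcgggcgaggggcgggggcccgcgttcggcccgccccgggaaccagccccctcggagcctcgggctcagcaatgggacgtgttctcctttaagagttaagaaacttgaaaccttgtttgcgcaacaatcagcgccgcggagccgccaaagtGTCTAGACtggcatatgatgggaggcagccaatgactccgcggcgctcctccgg

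Type I receptors, the kinases that phosphorylate Smads, were led by 1 TGF-beta and 1 BMP receptor. Tgfbr1, the type I receptor of TGF-beta, stood at 135 and 154 RPKM and made up 44.4% and 50.9% of the summed RPKM of the 7 type I genes. Bmpr1a, a main BMP receptor of the early embryo, stood at 98.8 and 98.8 RPKM with 32.5% and 32.6% of the sum, in a locus joined with the antisense gene Gm17110. These 2 genes thus held most of the type I sum in each replicate. Its paralogue Bmpr1b, known for its part in limb cartilage, was at 27.6 and 17.8 RPKM, and the difference of 2.11 ± 0.42 (log2 scale, SD, n = 2) lay beyond the replicate spread, as it did in all alternatives in which it could be compared. Acvr1, another BMP type I receptor, was lower at 11.3 and 7.86 RPKM, which put Bmpr1a above it by 3.26 ± 0.33, beyond the spread.

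The other type I receptors lay at or below the median of the 44 genes. Acvr1b, the activin and Nodal receptor, stood at 19.4 and 15.1 RPKM, below Tgfbr1 by a difference of 3.002 ± 0.38 for Tgfbr1 over Acvr1b. Its relative Acvr1c was at 0.808 RPKM from 19 reads (interval 0.487 to 1.26) and 0.312 from 41 reads (0.224 to 0.423), joined with the antisense gene Gm13544. Acvr1b over Acvr1c was 3.56 ± 0.08, beyond the spread. Acvrl1, the type I receptor of endothelial cells, was at 11.3 and 9.16 RPKM, joined with Gm16031. Its difference from Acvr1, 0.10 ± 0.14, was within the spread and changed sign between replicates. The endothelial markers Pecam1, Cdh5, Kdr, Tek, Tie1 and Esam ranged from 10.0 to 36.2 RPKM in replicate 1 and from 8.47 to 27.2 in replicate 2, so Acvrl1 lay near the low end of their range.

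Type II receptors, which bind ligand and activate the type I kinase, were all at 1 RPKM or more. Bmpr2, the BMP type II receptor, was highest at 82.2 and 56.7 RPKM, which was 47.0% and 44.5% of the summed type II level. Acvr2a followed at 60.6 and 46.3, and Acvr2b at 21.1 and 16.1, both receptors that take activins and BMPs. Tgfbr2, the sole type II receptor of the TGF-beta ligands, was the lowest at 10.8 and 8.48 RPKM. The TGF-beta receptor pair was thus uneven: Tgfbr1 exceeded Tgfbr2 by 3.52 and 4.03 on the log2 scale (3.78 ± 0.36), beyond the spread under all alternatives tried. Acvr2a over Acvr2b (1.48 ± 0.01) and Bmpr2 over Acvr2b (1.84 ± 0.11) lay beyond the spread too, but not per kilobase of the longest transcript, where they were 0.35 and 0.20. With that length Acvr2a, at 34.5% and 37.2% of the type II sum, stood above Bmpr2 at 33.5% and 30.6%. Type I genes made up 67.0% ± 4.88 (SD, n = 2) of the RPKM of all type I and type II genes, and 56.5% when joined loci were left out.

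Co-receptors and the decoy receptor were at middle levels. Endoglin, Eng, which presents ligands to Acvrl1 on endothelium, stood at 47.5 and 52.2 RPKM in a locus joined with the adenylate kinase gene Ak1, so the value cannot be given to Eng alone. It rested on 411 and 2101 reads and on short lengths of 630 and 516 bases behind the RPKM, where the longest listed transcript has 3422. Per kilobase of that transcript it was 8.76 and 7.88. Tgfbr3, the betaglycan co-receptor that presents Tgfb2, was at 17.2 and 9.80 RPKM. Eng over Acvrl1 (2.19 ± 0.28) lay beyond the spread in all alternatives in which it could be compared, while Eng over Tgfbr3 (1.86 ± 0.63) did not per kilobase of the longest transcript (0.72). Because the Eng locus is joined with Ak1, neither pair could be compared among loci with 1 identifier. Bambi, a pseudoreceptor without a kinase domain that BMP signalling induces, was at 27.2 and 22.7 RPKM.

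Smads ranged from the top of the 44 genes to near the bottom. Smad5 was highest at 227 and 166 RPKM, followed by Smad2 at 112 and 106 and the common Smad4 at 90.3 and 73.7. Smad3 stood at 44.4 and 28.1 RPKM and Smad1 at 39.4 and 28.9, and Smad9 at 1.45 from 32 reads (interval 0.990 to 2.04) and 1.03 from 130 reads (0.865 to 1.23). Each class of receptor-regulated Smad thus had 1 leading gene: Smad5 on the BMP side and Smad2 on the TGF-beta side. Smad5 exceeded Smad9 by 6.45 ± 0.13, beyond the spread in all alternatives tried. Smad1 minus Smad5 (-2.49 ± 0.01) and Smad2 minus Smad3 (1.59 ± 0.40) lay beyond it as well, but were -0.86 and 1.04 per kilobase of the longest transcript, within the spread.

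The 3 BMP-side Smads made up 63.2% and 59.4% of the summed RPKM of the 5 receptor-regulated Smads, with Smad5 alone at 53.5% and 50.4%. Smad2 held 26.4% and 32.1%. With the length of the longest transcript the BMP side held 64.6% on average, and Smad5 40.2% and 43.2%, so the BMP side's mean moved by more than its SD between replicates (2.64) while Smad5's part was smaller. Smad4 minus Smad5 was -1.24 ± 0.11, within the spread, and turned to 0.44 per kilobase of the longest transcript.

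**Figure D2:**
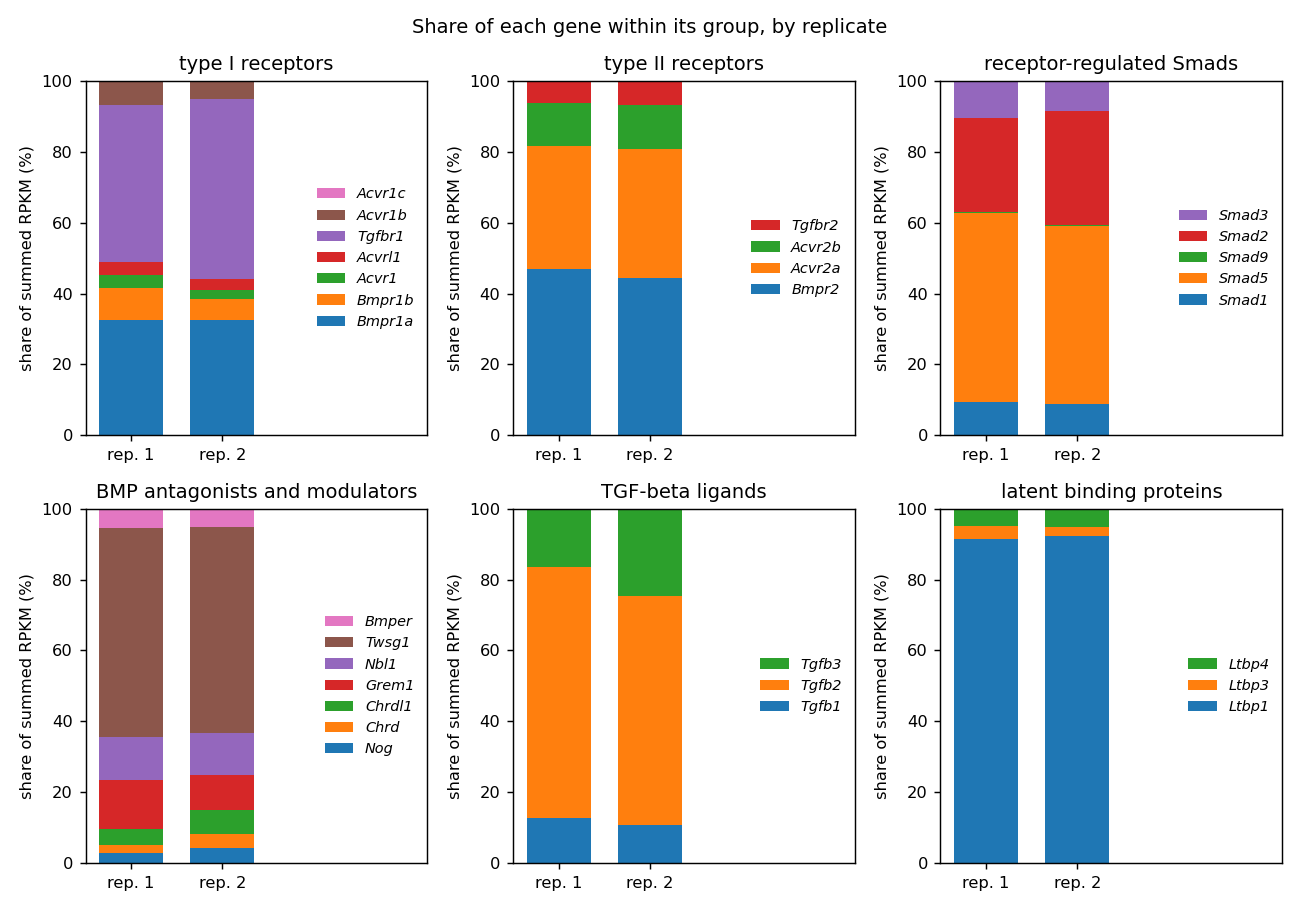
Share of each gene in the summed RPKM of its group (percent, bars from 0 to 100) in replicates 1 and 2, for 6 groups. Tgfbr1 and Bmpr1a fill most of the type I bars, Smad5 and Smad2 most of the receptor-regulated Smad bars, Tgfb2 most of the ligand bars and Ltbp1 nearly all of the last.

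Intracellular inhibitors were all at 9 RPKM or more. The inhibitory Smads, which block type I receptors and recruit ubiquitin ligases, stood at 32.0 and 28.7 RPKM for Smad7 and at 19.4 and 9.91 for Smad6. The difference, Smad6 minus Smad7, was -1.07 ± 0.54, within the spread, although replicate 2 alone (-1.45) and a pseudocount of 0.1 (-1.12) put it beyond, and it turned to 0.33 per kilobase of the longest transcript. Smurf2, a ubiquitin ligase that marks Smads and receptors for degradation, was at 61.8 and 56.0 RPKM and Smurf1 at 32.5 and 24.3. Smurf1 minus Smurf2, -1.04 ± 0.19, passed its limit of 1.02 narrowly and did not in replicate 1 alone (-0.91) or per kilobase of the longest transcript (-0.75). The corepressor Skil, or SnoN, which holds Smad complexes inactive, was high at 122 and 89.6 RPKM, and Ski was at 50.1 and 33.2. Ski minus Skil was -1.34 ± 0.10, beyond the spread, but -0.61 and within it per kilobase of the longest transcript.

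Secreted BMP antagonists lay under 10 RPKM, with 1 exception among the 7 genes. Twsg1, twisted gastrulation, which binds BMPs together with chordin and can both favour and hinder signalling, was at 35.3 and 26.1 RPKM and made up 59.0% and 58.4% of the group's sum. Grem1, gremlin, known from the limb bud, stood at 8.30 and 4.51 RPKM, and Nbl1, the DAN antagonist, at 7.26 and 5.22. The rest lay between 1 and 4 RPKM in both replicates: Bmper at 3.20 and 2.26, Chrdl1 at 2.67 and 3.03, noggin, Nog, at 1.65 and 1.95, and chordin, Chrd, at 1.45 and 1.67, joined with the thrombopoietin gene Thpo. Nog rested on 28 and 188 reads, with intervals of 1.10 to 2.38 and 1.68 to 2.25.

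By the replicate spread, chordin could not be ranked against Nog, Chrdl1 or Bmper. Nog over Chrd (0.13 ± 0.02), Chrdl1 over Chrd (0.59 ± 0.01) and Bmper over Chrd (0.53 ± 0.35) were all within the spread in every alternative in which they could be compared. The log2(RPKM + 1) scale understates such low genes. By counting error alone, the intervals of Chrdl1 (2.033 to 3.445 and 2.707 to 3.383) lay above those of Chrd (1.109 to 1.854 and 1.495 to 1.865). Those of Bmper (2.64 to 3.838 and 2.059 to 2.476) did too, while those of Nog overlapped them. Twsg1 over Chrd, 3.62 ± 0.39, lay beyond it. Grem1 over Nog was 1.36 ± 0.64 and beyond the spread, but not in replicate 2 alone (0.90) or with a pseudocount of 0.1 (1.72 against a limit of 1.76), and it turned to -0.16 per kilobase of the longest transcript.

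In the follistatin family Fstl1 lay far above the activin antagonist Fst itself, and Fstl3 below it. Fstl1, a secreted glycoprotein of mesenchyme, was the highest of the 44 genes at 238 and 331 RPKM, also per kilobase of the longest transcript (57.7 and 88.8). Fst, follistatin, which binds activins tightly, was at 8.87 and 6.96 RPKM, and Fstl3 at 1.62 and 1.52. Fstl1 over Fst was 4.99 ± 0.56 and Fst over Fstl3 was 1.79 ± 0.18, both beyond the spread in all alternatives tried. Fstl1 was 1 of 7 genes higher in replicate 2, by 1.39-fold, the most among those 7. With 1 length per locus 4 of the 7 (Fstl1, Tgfbr1, Nog and Inhbb) were still higher in replicate 2.

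TGF-beta ligands were led by Tgfb2 at 38.1 and 16.5 RPKM. Tgfb3 stood at 8.82 and 6.30 and Tgfb1, the isoform known from blood and endothelium, at 6.87 and 2.74. Tgfb2 made up 70.9% and 64.6% of the 3 ligands' RPKM (67.7% ± 4.43, SD, n = 2), and 52.6% on average per kilobase of the longest transcript. Tgfb1 minus Tgfb2, -2.27 ± 0.06, lay beyond the spread in all alternatives tried. Tgfb2 over Tgfb3, 1.63 ± 0.52, did too, but not in replicate 2 alone (1.26 against a limit of 1.31) or per kilobase of the longest transcript (0.74).

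Activin subunits were the lowest group. Inhba was at 0.907 RPKM from 18 reads (interval 0.538 to 1.43) and 0.736 from 95 reads (0.596 to 0.900). Inhbb was at 0.0912 from 3 reads (0.0188 to 0.267) and 0.102 from 19 reads (0.0612 to 0.159). Their intervals do not overlap in either replicate, while the difference of 0.73 ± 0.11 on the log2(RPKM + 1) scale, which understates low genes, was within the spread. Latent TGF-beta binding proteins, which tether the ligands to the matrix, were uneven: Ltbp1 stood at 44.1 and 39.6 RPKM with 91.4% and 92.2% of the group's sum, Ltbp4 at 2.39 and 2.21 and Ltbp3 at 1.78 and 1.14. Ltbp1 over Ltbp4, 3.70 ± 0.05, lay beyond the spread in all alternatives tried, and Ltbp3 minus Ltbp4, -0.43 ± 0.21, within it in all.

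**Figure D3:**
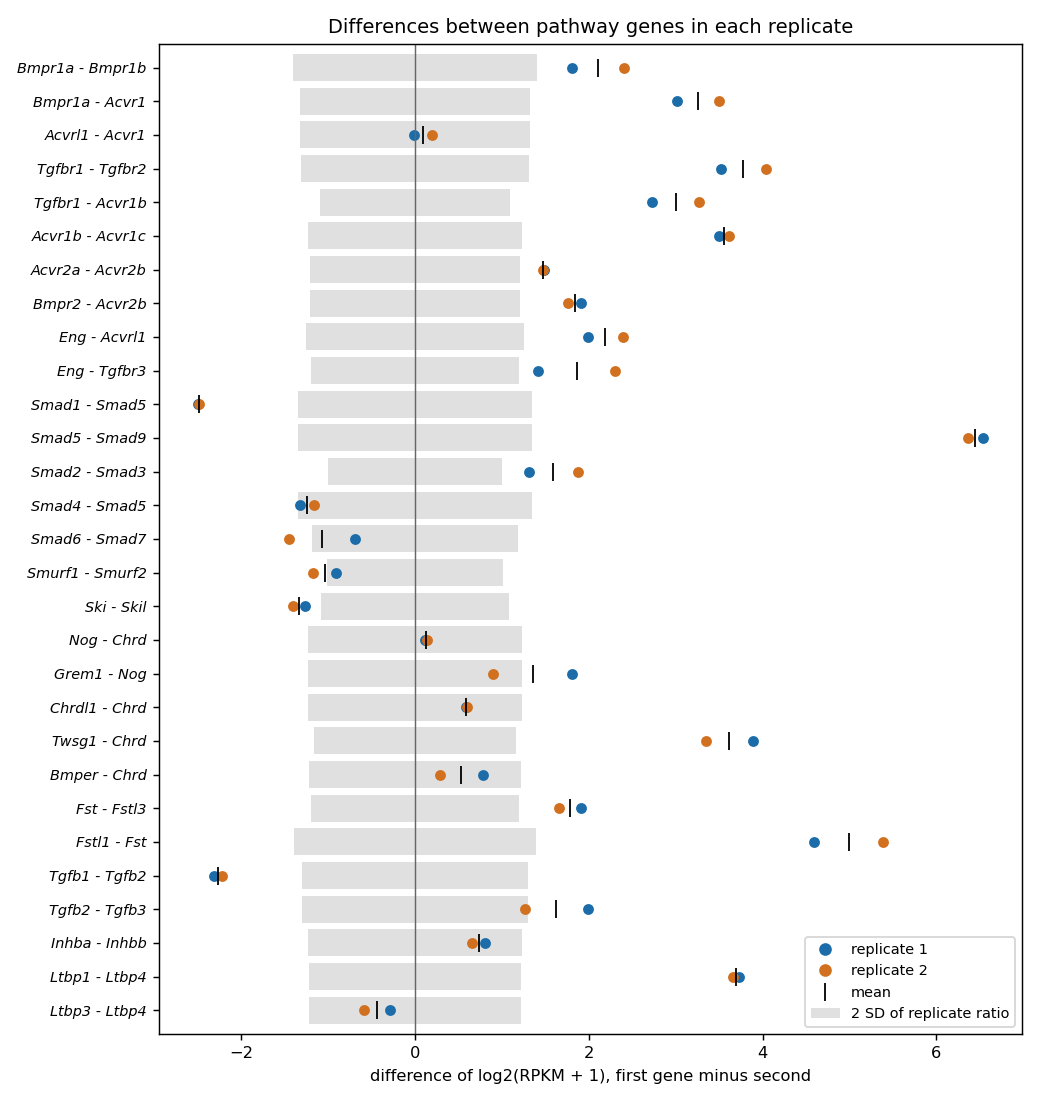
Difference of log2(RPKM + 1) between the genes of each of 29 pairs, first minus second, in replicate 1 (blue) and replicate 2 (orange), with the mean as a tick and grey bars of 2 SD of the replicate ratio at that level. In 21 pairs the mean lies outside the grey bar, with Smad5 over Smad9 (6.45) the farthest.

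Replicates differed over 2-fold at 2 of the 41 genes with a mean of 1 RPKM or more, where 18.9% of all such loci and 11.2% of the protein-coding ones did, and 15.5% of all such loci did so with replicate 1 higher. They were the ligands Tgfb1, 2.51-fold higher in replicate 1, and Tgfb2, 2.31-fold higher in replicate 1. Both have several transcripts, and the length behind their RPKM differed between libraries. For Tgfb2 it was 1459 bases in the first library and 2467 in the second, and for Tgfb1 it was 1392 and 1821. With 1 length per locus in both replicates, Tgfb2 stood at 28.4 and 20.7 RPKM, 1.37-fold apart, and Tgfb1 at 5.95 and 3.11, 1.91-fold apart, and none of 41 genes was over 2-fold, where 18.1% of all loci still were.

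The length acted on the inhibitory Smads in opposite directions. Smad7 was 1.11-fold higher in replicate 1 in the deposited RPKM but 1.54-fold higher with 1 length, and Smad6 went from 1.96-fold to 1.48-fold, so that the pair, unlike each other in the deposited values, had like ratios by reads. The length differed by over 1% between replicates at 28 of the 44 genes and by over 10% at 14, and at none of the 10 genes with 1 listed transcript. Such differences were general. Among multi-transcript loci above 200 reads in replicate 1, only 23.2% had the same length in both replicates within 1%. The share of all loci over 10% was not computed. Of the 10 genes with 1 listed transcript, 5 (Smad9, Grem1, Bmper, Tgfb3 and Inhbb) had a length within 1% of the stretch to the stop codon. For Tgfb3 it was 2348 bases, where the full transcript has 3383.

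**Figure D4:**
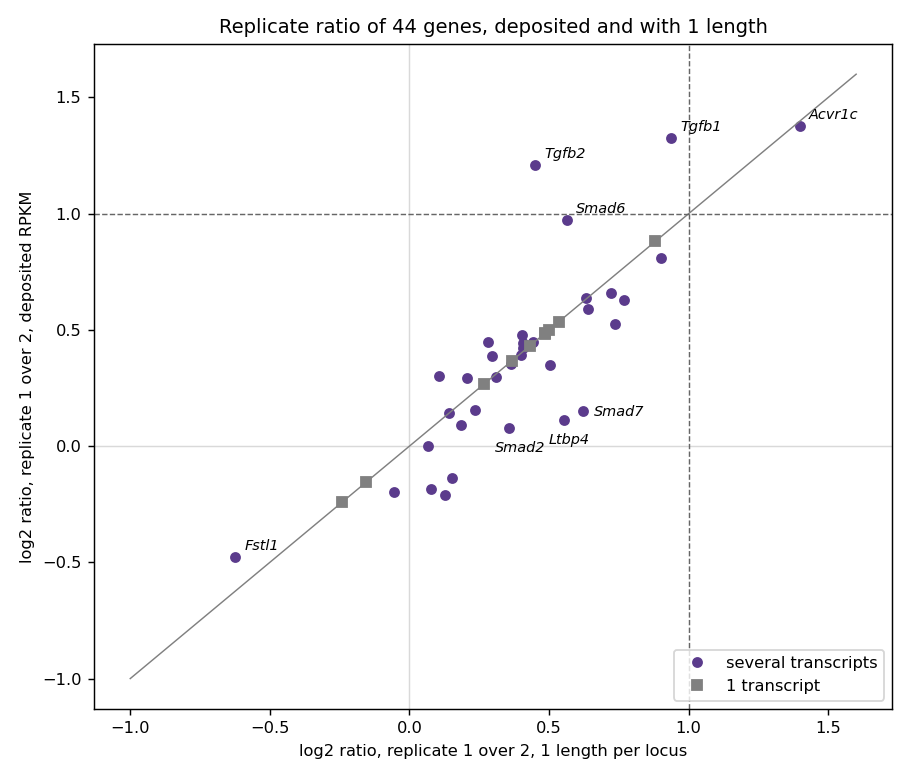
Log2 ratio of replicate 1 over replicate 2 for the 44 genes, from the deposited RPKM (vertical) and with 1 length per locus (horizontal), with dashed lines at 2-fold. Genes with 1 transcript (squares) lie on the diagonal, Tgfb1, Tgfb2 and Smad6 above it and Smad7, Ltbp4 and Smad2 below it, and Acvr1c, under 1 RPKM on average, is the only gene past 2-fold on both axes.

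Other genes of the pathway were taken from lists of 97 genes, of which 95 were matched to a locus through their symbol. Of these 95, 65 (68.4%) reached 1 RPKM in both replicates, a share near the 65.1% of protein-coding loci. Gdf1 and Ctgf were not analysed here. BMP and GDF ligands passed at 12 of 20 loci. The highest loci held Bmp5 (56.5 and 47.5), joined with Hmgcll1, and Bmp8b (48.7 and 48.3), joined with Ppie. These values cannot be given to the ligands alone. Gdf11 followed at 31.4 and 26.4 RPKM, and Bmp15, an oocyte factor, was lowest on average at 0.0474 and 0.0668. Genes of Nodal signalling, inhibin and anti-Mullerian hormone passed at 1 of 11, the inhibin subunit Inha (1.66 and 1.54), followed by Foxh1 (1.08 and 0.480) and Amhr2 (0.383 and 0.596), with the left-side signal Lefty2 lowest (0 and 0.0217). All genes of this list but Inha were thus under the minimum in at least 1 replicate.

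Further antagonists passed at 9 of 13 loci. Tmeff1 was highest at 148 and 239 RPKM, the matrix proteoglycan Dcn stood at 20.3 and 22.2, and Fstl4 was lowest on average (0.288 and 0.229). Other co-receptors and membrane modulators passed at 5 of 7. The highest locus was that of Vasn (71.3 and 48.9), joined with Dnaja3 and Coro7, so its value cannot be given to Vasn alone. The repulsive guidance receptor Neo1 (51.9 and 41.7) and Rgmb (39.0 and 27.9) followed, and Lrg1 was lowest (0.0670 and 0). Proteases and matrix carriers that free or store ligands passed at 10 of 13, with the fibrillin Fbn2 (51.8 and 45.3), Itgav (49.99 and 32.4, joined) and Thbs1 (37.3 and 30.7) highest and Ltbp2 lowest (0.423 and 0.205, joined).

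Intracellular regulators passed at all 18 loci, with a median of 57.2 and 36.0 RPKM. Stub1 (290 and 232) and the deubiquitinase Usp9x (198 and 158), both joined, and the receptor-associated Strap (138 and 162) were highest, and Pmepa1, a TGF-beta-induced inhibitor, was lowest (8.25 and 6.42). Genes known as targets of the signals passed at 10 of 13. Of the Id genes, which BMP Smads activate in many cells, 3 were the highest, with Id3 at 161 and 180 RPKM, Id2 at 84.2 and 59.7 and Id1 at 38.8 and 29.1. Id4 was lower, at 12.2 and 13.4 in a joined locus, and the cell cycle inhibitor Cdkn2b was lowest (0.348 and 0.0409).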

How the data were processed

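Each replicate's file held 2 values per locus, per the file headers. The RPKM is the authors' scaling of reads by length and library size. The deposited counts are raw whole numbers. TopHat and the genome build mm9 are named per the submitters' processing notes. For the counter, filters and strand nothing is given in the sources used here. Antisense partners therefore cannot be told apart. The 34676 rows with the same gene identifiers were summed to 34624 loci, of which 2473 joined several genes. Symbols came from a table of Ensembl identifiers, and gene types and transcript lengths from GENCODE M21, whose coordinates were not used. Promoters came from RefSeq, build GRCm38.p6.

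Among loci above 200 reads in replicate 1, the reads behind 1 RPKM differed 5.68-fold between replicates (within 1%) at all single-transcript loci and at 23.2% of multi-transcript loci. Lengths behind RPKM assume a library of 13711737 reads for replicate 1, the commonest value over single-transcript loci with M21 lengths. Of 2516 such loci, 28.6% came within 1% of it. It is below the 18318181 reads over all loci, which differed 6.42-fold between replicates, and the reason was not tested. The lengths, and levels per kilobase of the longest transcript, scale with this assumed size. With 1 group of 2 replicates no test between conditions was possible. Members, pairs and lists were chosen with earlier results of these data known, and the rule named every member and, of each further group, the 3 highest loci and the lowest. Of the further antagonists, 1 of the 3 highest is not reported here. Scripts (Python 3.11.15, pandas 2.3.3, scipy 1.17.1) were tested on simulated data. Alternatives were other minimums, a pseudocount of 0.1, CPM from the counts, 1 length per locus, the median ratio set to 1, loci with 1 identifier, the highest row of a locus and each replicate alone. The spread of protein-coding loci and the longest transcript's length were added and chosen after seeing the data.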

Additional observations from a re-analysis of the deposited data

How the results depend on the processing

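No paired analysis was possible because the series has 1 group, so that replicate numbers pair no samples. Minimums of 0.3 and 3 RPKM left 43 and 32 of 44 genes at or over the minimum. The length of the longest transcript left 37, losing Smad9, Chrd, Chrdl1 and Grem1. The count of genes over 2-fold between replicates, 2, was 0 with 1 length per locus, 0 with the median ratio between replicates set to 1 and 0 per length of the longest transcript. It was 3 of 41 with CPM in place of RPKM and 3 of 43 at a minimum of 0.3 RPKM, so it depends on the scale between libraries too. That length also lowered the pairs beyond the spread from 21 to 12, moved the BMP share of receptor-regulated Smads from 61.3% to 64.6% and the Tgfb2 share of ligands from 67.7% to 52.6%, while leaving out joined loci moved the type I share of receptors from 67.0% to 56.5%. The longest transcript's length reversed 4 pairs within or near the limit: Acvrl1 against Acvr1 (-0.72), Smad4 against Smad5 (0.44), Smad6 against Smad7 (0.33) and Grem1 against Nog (-0.16). Acvrl1 against Acvr1 ranged from -0.0067 without replicate 2, reversed, to 0.20 without replicate 1. With the spread of protein-coding loci 23 pairs lay beyond it, adding Smad4 against Smad5 and Smad6 against Smad7. Leaving out either replicate gave 20 pairs, and the 3 shares then ranged over the replicates' own values. Of the 21 pairs beyond the spread, 12 stayed beyond it in all 10 alternatives in which they could be compared. Depth limits Acvr1c, Inhba, Inhbb, Nog and Smad9 most, with 3 to 32 reads in replicate 1.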
